A study of Mus musculus with 3 samples.

Results

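Six2, Six4 and Six5, which encode homeodomain transcription factors, and Eya1, Eya2, Eya3 and Eya4, which encode their coactivators, were examined for binding of estrogen receptor α (ERα) in the mouse mammary gland. A peak belonged to a gene when its midpoint lay within 100 kb of any annotated transcription start site (TSS) of that gene or inside the gene body, on the mm9 assembly. By this rule the 7 genes held 15 of the 9607 peaks of replicate 1, 9 of the 6819 peaks of replicate 2 and 8 of the 6250 regions shared by both lists.

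The study mapped ERα by ChIP-seq, in which DNA bound by a protein is recovered with an antibody and sequenced. All samples were mammary glands of wild-type BALB/c mice whose ovaries were removed at 6 weeks of age, and which received 100 ng of 17β-estradiol 10 days later, 2 h before collection. There were 2 ERα ChIP replicates, each pooled from several mice, and 1 input library of chromatin that went through no antibody step, which served both replicates. No vehicle-treated ChIP library is among the samples, so the values show where ERα was bound after estradiol, with no untreated level to set beside it. The glands were whole tissue, and the lists hold binding and no expression, so the cell types behind a peak could not be checked from markers. The lists also hold no reads, so the depth behind each peak is unknown from them.

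Six-family proteins bind DNA through a homeodomain and a neighbouring family-specific domain. Eya proteins do not bind DNA by themselves but join these factors at their target genes, and they also carry tyrosine phosphatase activity. With Pax and Dach proteins they form a network that directs the early development of kidney, ear, muscle and sense organs. ERα binds the estrogen response element (ERE), a palindrome of the half-site GGTCA and its reverse complement, here searched as GGTCANNNTGACC on both strands.

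The sequences below are from the forward strand of the mm9 assembly and are shown because the comparison of motifs rests on them. The first set gives 200 bases of the shared region of Six5, Eya1 and Eya2 that was highest by the lower of its 2 scores, and of Six4 region 1, which held the highest single score at Six4. The sequences have the 13 bases closest to the ERE in capitals. They lie at chr12:74307392-74307591 (Six4 region 1), chr7:19762716-19762915 (Six5 region 2), chr1:14213484-14213683 (Eya1 region 1) and chr2:165641481-165641680 (Eya2 region 3).
Six4 region 1: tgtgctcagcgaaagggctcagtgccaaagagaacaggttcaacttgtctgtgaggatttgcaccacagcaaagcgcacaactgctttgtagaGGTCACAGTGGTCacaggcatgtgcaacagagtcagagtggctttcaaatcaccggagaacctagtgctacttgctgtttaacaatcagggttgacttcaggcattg
Six5 region 2: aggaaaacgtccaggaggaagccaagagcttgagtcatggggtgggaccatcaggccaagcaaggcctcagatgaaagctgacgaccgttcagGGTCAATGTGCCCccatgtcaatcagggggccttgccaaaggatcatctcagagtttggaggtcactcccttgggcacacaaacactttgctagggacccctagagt
Eya1 region 1: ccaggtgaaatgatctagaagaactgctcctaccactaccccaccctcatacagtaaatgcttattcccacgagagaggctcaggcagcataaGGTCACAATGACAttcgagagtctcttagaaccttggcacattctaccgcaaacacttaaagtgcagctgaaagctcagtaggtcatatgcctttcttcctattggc
Eya2 region 3: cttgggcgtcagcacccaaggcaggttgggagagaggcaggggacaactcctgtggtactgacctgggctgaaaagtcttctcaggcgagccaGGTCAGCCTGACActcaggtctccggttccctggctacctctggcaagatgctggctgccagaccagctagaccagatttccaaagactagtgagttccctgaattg
In the next set, the match is shown with 9 bases on each side, and capitals mark only the letters equal to the consensus. These are the closest matches in Six5 region 1 (chr7:19669655-19669685), in the peak of replicate 1 alone upstream of Eya3 (chr4:132146590-132146620), and in the peaks of 1 replicate at Eya2 with 1 mismatch, from the farthest upstream to the farthest downstream (chr2:165458815-165458845, chr2:165531496-165531526 and chr2:165576762-165576792).
Six5 region 1: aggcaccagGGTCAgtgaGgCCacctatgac
Eya3, replicate 1 alone: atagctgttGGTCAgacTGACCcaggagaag
Eya2, replicate 1 alone, upstream: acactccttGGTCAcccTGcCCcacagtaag
Eya2, replicate 2 alone: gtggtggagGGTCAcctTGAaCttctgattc
Eya2, replicate 1 alone, intron 9: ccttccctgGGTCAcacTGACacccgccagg
The last sequence is the middle of Eya2 region 2 (chr2:165527265-165527424), a tandem repeat whose most frequent 20-base unit is in capitals.
Eya2 region 2: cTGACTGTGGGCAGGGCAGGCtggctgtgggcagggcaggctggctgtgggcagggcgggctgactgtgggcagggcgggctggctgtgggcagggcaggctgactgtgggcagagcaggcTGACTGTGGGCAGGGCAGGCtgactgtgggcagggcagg

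Shared regions were found at 4 of the 7 genes. Eya2 held 3, Six4 and Six5 held 2 each and Eya1 held 1, while Six2, Eya3 and Eya4 held none. Over all 22367 protein-coding genes, 38.5% had at least 1 shared region in a window drawn the same way, and over all annotated genes 34.6% did. The 3 regions of Eya2 are a number reached by 9.06% of protein-coding genes, and by 15.5% of the 1249 whose windows are at least as long as its 314 kb. With peaks of either replicate counted, 5 of the 7 genes had at least 1, against 51.5% of protein-coding genes. The windows of the 7 genes together held 0.453 shared regions per 100 kb, the windows of all protein-coding genes summed in the same way held 0.341, and chromosomes 1 to 19 and X, with the stretches far from genes, held 0.237. With windows of the gene body and 10 kb on each side, 2 of the 7 genes had a shared region, Eya1 and Eya2, against 13.3% of protein-coding genes. These shares are descriptions of a list of 7 genes, and no test was made.

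**Figure D1:**
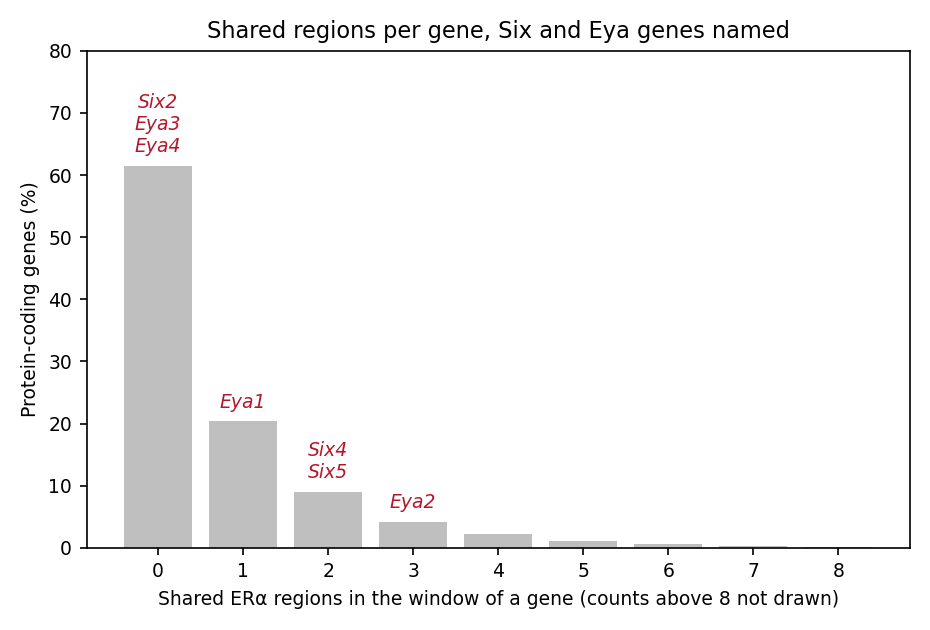
Share of protein-coding genes (vertical axis, percent) by the number of shared ERα regions in their window (horizontal axis), with the 7 genes named above the bar for their own number. Six2, Eya3 and Eya4 stand with the 61.5% of genes that had none, and Eya2 stands at 3.

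The score of a peak, as the authors' peak caller gave it, is the negative log10 of a p-value multiplied by 10, and no peak in either list scored below 80. A peak counted as shared when it overlapped a peak of the other list by at least 1 bp, and the shared region is the stretch that both peaks cover. Of the 15 peaks of replicate 1 in the windows, 8 overlapped a replicate 2 peak (53.3%, 95% Clopper-Pearson interval 26.6% to 78.7%), and over the whole list 64.9% did. Of the 9 peaks of replicate 2, 8 overlapped replicate 1 (88.9%, interval 51.8% to 99.7%), against 90.6% of the list. Both intervals include the share of the whole list and cover counting error only.

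**Figure D2:**
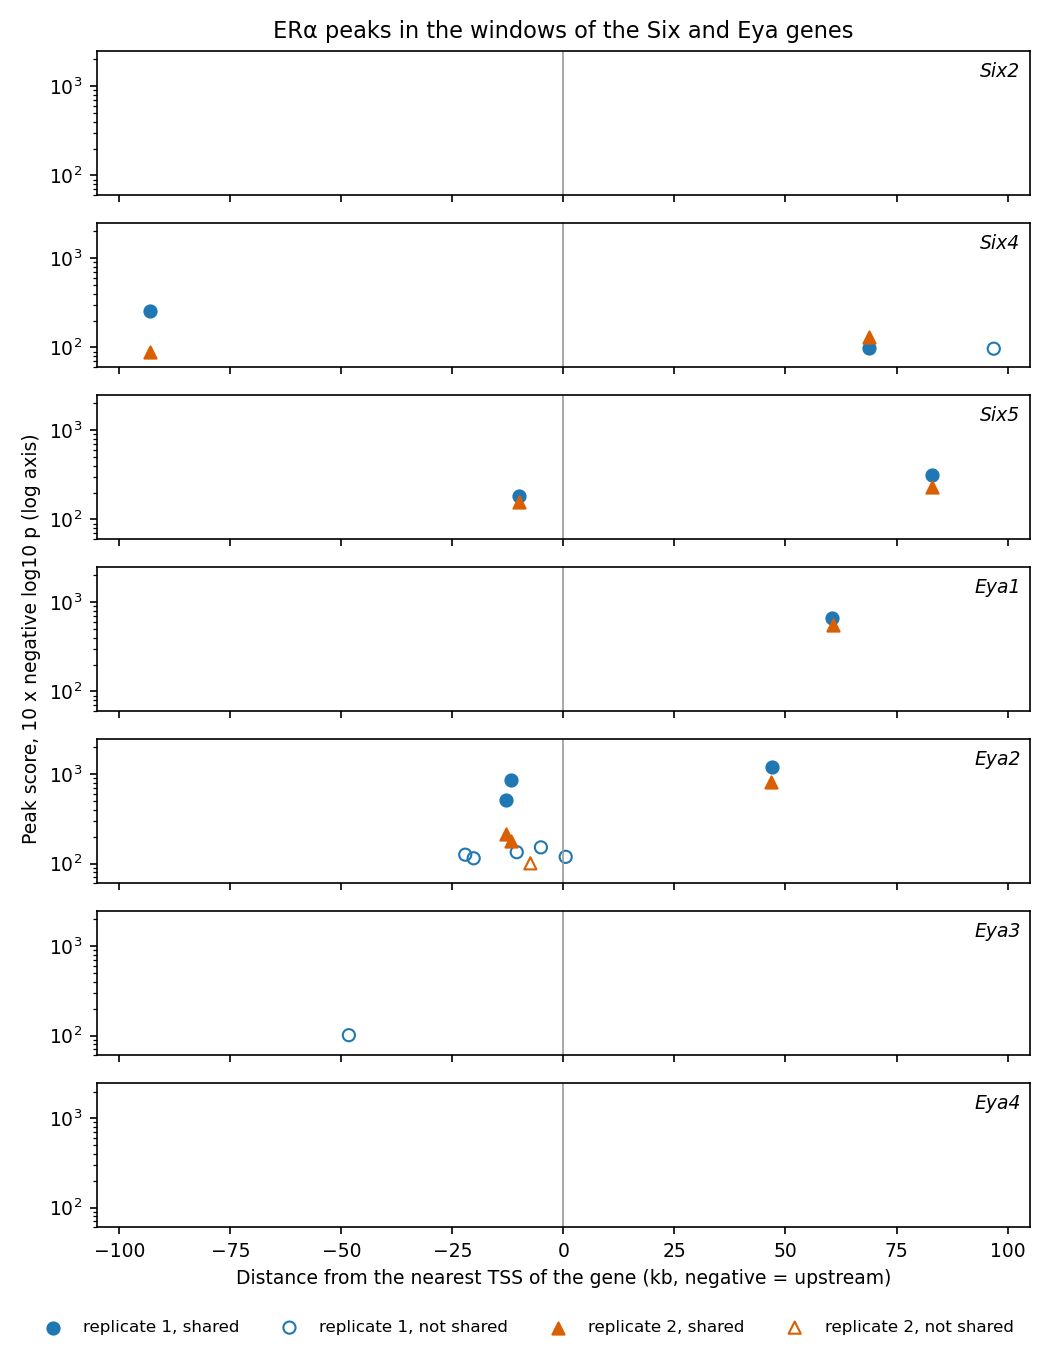
Every ERα peak in the windows of the 7 genes, by distance from the nearest TSS of the gene (horizontal axis, kb, negative upstream) and score (vertical axis, log scale), with circles for replicate 1, triangles for replicate 2 and filled symbols for shared peaks. The peaks of Eya2 number 12 of 24, and the panels of Six2 and Eya4 are empty.

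Six2, which keeps kidney progenitor cells undifferentiated, had no peak in either list within its window on chromosome 17. The nearest peak of either list was an unshared one of replicate 1, with a score of 107, at -179 kb. Absence here means that no peak with a score of at least 80 was listed.

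Six4, a Six-family factor expressed in developing muscle, held its shared regions far from its TSSs. Six4 region 1 (chr12:74307194-74307674) scored 255 in replicate 1 and 88.0 in replicate 2 and lay at -93.0 kb, in intron 6 of Mnat1. Its replicate 1 score was 2.9 times the replicate 2 score, a ratio higher than that of 98.9% of the 6097 one-to-one pairs of peaks in the lists. Six4 region 2, at 68.9 kb downstream, scored 99.5 and 132, and was the 1 region of the 8 with the higher score in replicate 2. A peak of replicate 1 alone with a score of 96.9 lay at 96.9 kb, just inside the edge of the window.

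Six5 lies beside Dmpk, the kinase gene that carries the repeat expanded in myotonic dystrophy. Six5 region 1 (chr7:19669561-19670155) scored 185 and 156 at -10.0 kb from the Six5 TSS, in intron 1 of Dmpk and at -201 bp from another annotated TSS of Dmpk. Six5 region 2 (chr7:19762599-19763069) scored 312 and 230 and lay 82.9 kb downstream of Six5, in intron 1 of Eml2 and 1064 bp from an Eml2 TSS. For both regions a TSS of a gene other than Six5 was thus nearer. Both also fell in the window of Dmpk, so the counts of Six5 and Dmpk rest on the same regions.

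Eya1, mutated in branchio-oto-renal syndrome, had 1 region and no unshared peak. Eya1 region 1 (chr1:14213201-14213812) lay in intron 11 of Eya1, 60.6 kb downstream of the nearest Eya1 TSS and 86.8 kb from the most 5′ one. It scored 665 in replicate 1 and 558 in replicate 2, above 89.3% and 87.7% of the peaks in these lists. The ratio of its scores, 1.19, was near the median of 1.31 over all pairs.

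Eya2, an Eya coactivator of muscle and sensory tissue, held 8 of the 15 peaks of replicate 1 and 4 of the 9 of replicate 2. Its highest-scoring region, Eya2 region 3 (chr2:165641258-165641881), scored 1200.3 and 823, ranks 380 and 450 in the lists. It lay in intron 12 of Zmynd8, 46.9 kb downstream of an internal TSS of Eya2 but 161 kb from the most 5′ TSS, so that it belonged to Eya2 only through the internal TSS. Eya2 regions 1 and 2 lay in intron 5 of Eya2 with midpoints 1280 bp apart. Of all shared regions, 10.4% had another within 2 kb. Regions 1 and 2 lay at -13.0 and -11.7 kb from an internal TSS of Eya2, but 45.3 and 46.5 kb downstream of the most 5′ TSS. Eya2 region 1 (chr2:165525732-165526396) scored 512 and 213, and Eya2 region 2 (chr2:165527015-165527674) scored 870 and 177.

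The scores of Eya2 region 2 differed between the replicates by a factor of 4.92, the highest of the 6097 pairs, the next being 4.83. In the 400 bp around its midpoint 91.1% of bases equalled the base 20 positions on, and 0.368% of all shared regions reached 60% at any shift from 5 to 100. The most frequent unit occurred 9 times without mismatch within a span of 520 bp. Its GC content was 69.2%, higher than in 99.7% of shared regions. Over the 6090 pairs on assembled chromosomes the ratio of the scores was larger where GC content was higher. Its median was 1.14 below 40% GC, 1.26 from 40% to 50%, 1.42 from 50% to 60% and 1.75 from 60% on. Six4 region 1 (41.2% GC) had a ratio of 2.9 and Eya2 region 1 (54.8%) 2.4, above the upper quartiles of 1.54 and 1.76. Six4 region 2 (53.8%) had 0.756 and Six5 region 1 (60.5%) 1.18, below the lower quartiles of 1.17 and 1.39. The 20 pairs over regions that reached the 60% limit, Eya2 region 2 among them, had a median ratio of 1.72, from 1.11 to 4.92. The highest ratio among them after that of Eya2 region 2 was 3.76. The part of the repeat and of GC content in the difference between the replicates at Eya2 region 2 was not tested.

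**Figure D3:**
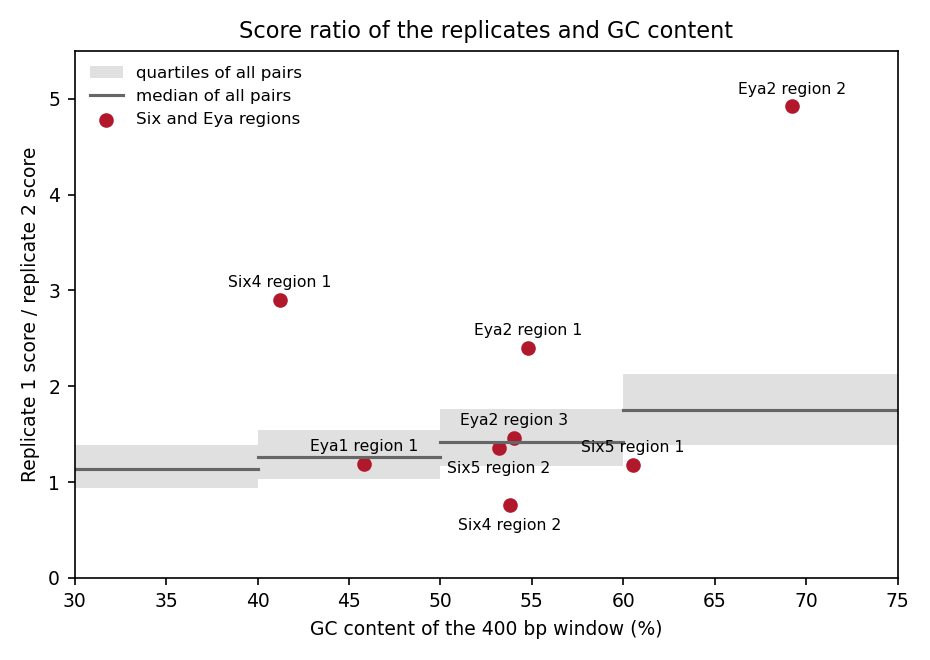
Ratio of the replicate 1 to the replicate 2 score (vertical axis) against GC content of the 400 bp window (horizontal axis, percent) for the 8 regions, with the median and quartiles of all pairs in 4 ranges of GC content. Eya2 region 2 stands alone at 4.92, while Eya1 region 1, Six5 region 2 and Eya2 region 3 lie between the quartiles.

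The remaining peaks of Eya2 were low. The 5 of replicate 1 alone scored 114 to 152, and of all replicate 1 peaks in that range 49.8% overlapped replicate 2. One of them (chr2:165490511-165491111, score 119) had its midpoint 523 bp downstream of a TSS of Eya2. The midpoint lay in an annotated exon of Eya2, but in intron 2 of the longest protein-coding transcript there. The highest (chr2:165475479-165476000, score 152) lay at -5.06 kb. The peak of replicate 2 alone (chr2:165531351-165531922) scored 100 and lay in intron 5, the intron of regions 1 and 2.

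Eya3, a family member whose phosphatase acts in DNA repair, had no shared region. A peak of replicate 1 alone (chr4:132146363-132146870) lay at -48.3 kb with a score of 101, higher than 19.9% of that list. Eya4, linked to hearing and heart function, had no peak in a window of 346 kb. Of the 945 protein-coding genes with a window at least as long, 38.6% had no peak in either list and 52.5% had no shared region.

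In replicate 1 the 4 shared regions of Six4 and Six5 scored 99.5 to 312. The 4 of Eya1 and Eya2 scored 512 to 1200.3, without overlap. This held for shared regions only. The unshared replicate 1 peaks of Eya2, at 114 to 152, and of Eya3, at 101, fell in the range of the Six4 and Six5 regions. The unshared one of Six4 scored 96.9. In replicate 2 the ranges of the shared regions overlapped, 88.0 to 230 for Six4 and Six5 against 177 to 823. Replicate 1 had the higher score at 7 of the 8 regions, and at 81.2% of all pairs. Over the 8 regions the log10 scores of the replicates had a Pearson correlation of 0.718 and a Spearman correlation of 0.762, against 0.914 and 0.858 over all 6097 pairs. These are correlations across regions that share their libraries, not across animals.

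**Figure D4:**
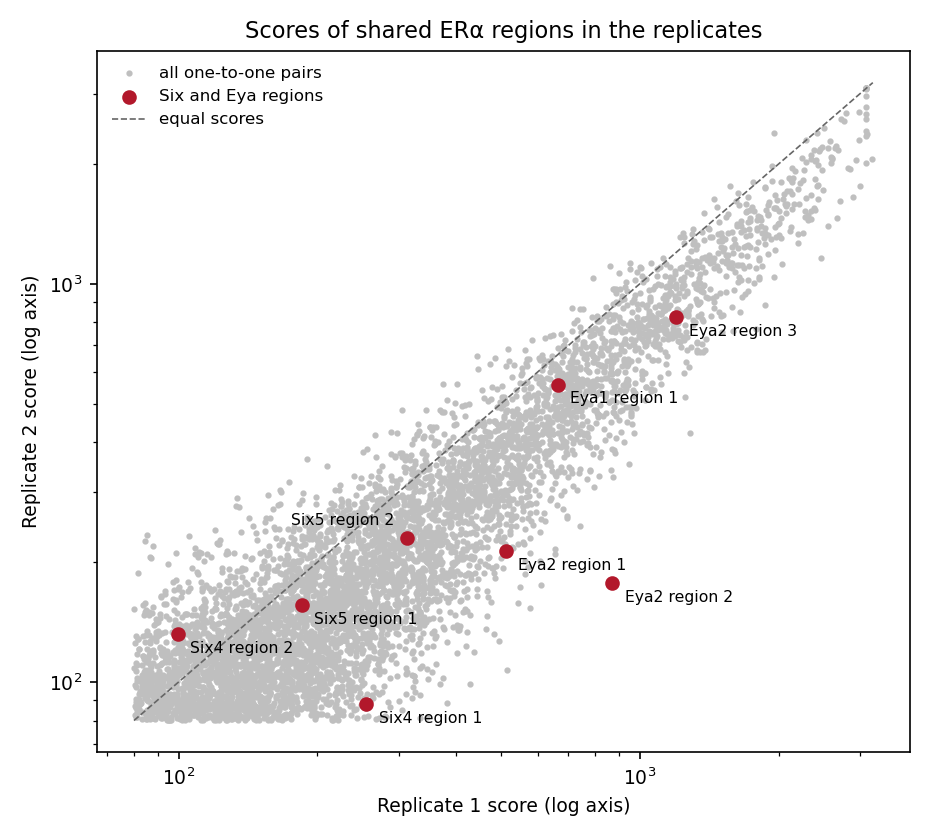
Replicate 2 score against replicate 1 score (log axes) for all 6097 one-to-one pairs of peaks (grey) and the 8 regions of the Six-family and Eya genes (red), with a dashed line for equal scores. Eya2 region 2, with scores of 870 and 177, lies farther below the line than any other pair, and Six4 region 2 lies above it.

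All 8 regions had their midpoint in an intron of a protein-coding gene, as did 42.8% of all shared regions. The latter include regions far from genes, whereas the 8 were chosen by their place in or near a gene. The host was the gene itself for 3 of the 8, Eya1 region 1 and Eya2 regions 1 and 2. These were also the regions whose nearest protein-coding TSS was that of one of the 7 genes. None of the 8 lay between 1 kb upstream and 400 bp downstream of a TSS of its gene. By the nearest TSS of their own gene, 4 lay upstream and 4 downstream. Of these, Eya2 regions 1 and 2 were upstream of an internal TSS but downstream of the most 5′ one. Over the 17200 pairs of a shared region and a protein-coding gene whose window held it, 2.15% were in that proximal range, 47.4% upstream and 50.5% downstream. At the edge of the 100 kb window, the Six4 peak at 96.9 kb was the farthest inside, and a shared pair at 104 kb downstream of Eya2, with scores of 177 and 111, was the nearest outside.

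An ERE with at most 1 mismatch was found within 400 bp windows of 3 of the 8 regions (37.5%, interval 8.52% to 75.5%), against 31.1% of all shared regions and 1.11% of windows 5 kb to each side. These were Six5 region 2, Eya1 region 1 and Eya2 region 3, the highest-scoring regions of their genes by the lower of the 2 scores, and each had exactly 1 mismatch. The match in Eya2 region 3 was centred 11 bp from the midpoint of the region, that in Six5 region 2 at -19 bp and that in Eya1 region 1 at 77 bp. Six4 region 1, Six5 region 1 and Eya2 region 2 had a closest match with 2 mismatches, and Six4 region 2 and Eya2 region 1 had 3. No region had an ERE without mismatch, which 6.6% of all shared regions had.

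**Figure D5:**
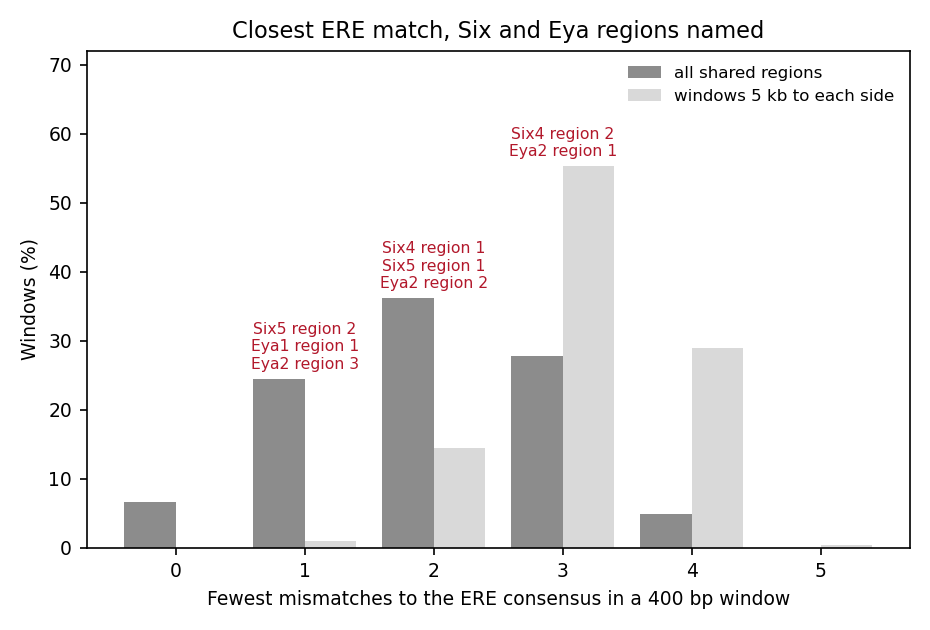
Share of 400 bp windows (vertical axis, percent) by the fewest mismatches to the ERE consensus (horizontal axis), for all shared regions (dark) and for windows 5 kb to each side (light), with the 8 regions named above the bars of their class. At 1 mismatch, 24.5% of shared regions and 1.06% of flanking windows were counted, and 3 of the 8 regions stand there.

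Of the other motifs searched, the AP1 motif TGACTCA occurred in Six5 region 1, with 2 copies, and in Six5 region 2, so in 2 of 8 regions against 16.7% of all. A forkhead motif, TGTTTAC or TATTTAC, occurred in 1, Six4 region 2, against 14.0%. None held the extended half-site CAAGGTCA (9.35% of all), the PAX2 core GTCACG (9.16%) or the MEF3 site TCAGGTTTC bound by Six-family factors (0.625%). With the ERE these are 6 motifs, and 3 of the 8 regions held none of them, as did 40.8% of all shared regions. The extended half-site contains the ERE half-site, so a base run can count under both.

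Unshared peaks held motifs as well. Of the 8 unshared peaks in the windows, 4 had an ERE with at most 1 mismatch, 3 of them at Eya2. Over the whole lists 15.7% of unshared replicate 1 peaks and 13.9% of unshared replicate 2 peaks did. The Eya3 peak had an ERE without mismatch at -11 bp from its midpoint, a feature of 1.96% of the unshared peaks of replicate 1. Of the 7 unshared peaks of replicate 1, the Eya2 peak at -5.06 kb held AP1 and PAX2 motifs, and the Eya2 peak in intron 9 held AP1, PAX2 and the extended half-site. A further one in intron 5 of Eya2 (chr2:165518598-165519178, score 114) held a MEF3 site. Over all unshared peaks of replicate 1, AP1 occurred in 14.7%, PAX2 in 8.46%, the extended half-site in 7.39% and MEF3 in 0.624%. None of the 7 held a forkhead motif, which 403 of the 3368 unshared peaks of replicate 1 on assembled chromosomes did.

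The other genes of the network were 23 genes from a list of partner proteins, genes that act with or downstream of Six-family and Eya factors, an Eya substrate and the neighbour of Six5. Of these, 9 had at least 1 shared region (39.1%), a share near that of all protein-coding genes. Among the 6 partner genes 4 did, Dach1, Pax2, Pax7 and Pax8, with 1 region each, and Dach2 and Pax3 did not. Among the other 17, Dmpk, Ezr and Myog had 2 each, and Cited1 and Myf5 had 1. Ezr, which encodes a linker of membrane and cytoskeleton, had the region with its highest single score at -11.6 kb (chr17:6998390-6998988) with scores of 350 and 436. Myog, a muscle differentiation factor, had the region with its highest single score at -45.2 kb (chr1:136141110-136141646), with scores of 249 and 102, and another at -58.6 kb with scores of 191 and 179, the higher by the lower of the 2 scores. The region of Dmpk with the highest scores was Six5 region 2.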

How the data were processed

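Alignment by the authors was to mm9, using BWA, and each ERα list came from a separate MACS run against the common input at a p-value of 1e-08. The MACS version is not given in the sources used here. The score in each deposited list is the negative log10 of a p-value multiplied by 10, so that it rises with depth as well as enrichment and ranks peaks only within a list. Replicates were not pooled before calling.

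From these lists, overlaps (minimum 1 bp), distances to the TSSs of all transcripts in the GENCODE annotation of NCBIM37, and motifs in 400 bp windows on both strands were computed. Unplaced sequences were left out where annotation or sequence was needed. The steps were tested on simulated data. Named were all shared regions of the 7 genes, the highest-scoring peak of 1 replicate at each gene, and network genes with shared regions, with the highest region of the 3 that had most. The members and lists were chosen with earlier results of these data known. The comparisons of tandem repeats (with the 60% limit), GC content and motifs in unshared peaks, and the other unshared Eya2 peaks named, were chosen after their values were seen. Alternatives were stricter scores, other overlaps, windows, TSSs and motif settings, and each replicate alone. With 2 replicates and 1 condition no test was made, and Clopper-Pearson intervals cover counting error only. The host gene and sequence of Six4 region 2, and coordinates for it and for the unshared Six4 peak, are not reported here, so that Six4 region 1 was printed although region 2 was higher by the lower of its 2 scores. Sequences were read with pysam 0.24.0, intervals came from scipy 1.17.1, and matplotlib 3.10.9, pandas 2.3.3 and numpy 2.4.6 were run under Python 3.11.15.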

Additional observations from a re-analysis of the deposited data

How the results depend on the processing

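The number of shared regions at the 7 genes, 8, became 4 with a score of at least 200 in both lists, 5 with a window of 50 kb, 3 within the gene bodies and 10 kb on each side, and 3 when the nearest protein-coding TSS had to be one of these genes'. With 1 list alone it was 9 (without replicate 1) to 15 (without replicate 2). At a score of at least 100, with reciprocal 50% overlap, with midpoints within 100 bp and with the most 5′ TSS alone it was between 6 and 8. Six2 and Eya4 held none in any of these settings, and Eya3 held 1 only in replicate 1 alone. Six4 held none at a score of at least 100 or 200 or with the 50 kb window. With gene bodies and 10 kb, or with the nearest protein-coding TSS, Six4 and Six5 both held none, which left 2 genes, Eya1 and Eya2 (13.3% and 14.4% of protein-coding genes at these settings). The share of replicate 2 peaks in the windows that overlapped replicate 1 was 100.0% (4 of 4) at a score of at least 200 (95.3% of the list), 6 of 8 at a score of at least 100 (92.3%) and 77.8% with midpoints within 100 bp (79.9%). For replicate 1 it was 66.7%, 46.2% and 46.7% at these settings (66.5%, 66.2% and 56.7% of the list), and neither share can be had without a replicate. The share of regions with an ERE, 3 of 8, was 0% when no mismatch was allowed. It was 6 of 8 with at most 2 mismatches (67.3% of all shared regions), 3 of 4 at a score of at least 200 (43.1% of all) and 3 of 6 at a score of at least 100 (33.5% of all). With 1 list alone it was 4 of 9 peaks in replicate 2 alone (29.2% of all) and 6 of 15 in replicate 1 alone (25.5% of all). The density, 0.453 per 100 kb, was 0.226 at a score of at least 200, against 0.0986 over the chromosomes at that score, and with 1 list alone it was 0.509 without replicate 1 (0.258 over the chromosomes) and 0.849 without replicate 2 (0.364). Alternatives chosen after seeing the data left out Eya2 region 2, which gave 7 regions, 42.9% with an ERE and a density of 0.396, or used the most 5′ TSS alone for the ERE share, which gave 28.6%. The causes of these differences were not tested. No paired analysis was possible because the lists hold 1 condition. The lists give no depth, so a region missing from 1 list may lie below its threshold.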
